A study of Mus musculus with 76 samples.

Results

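The genes described here are markers of interneurons born in the caudal ganglionic eminence (CGE), and they were followed in neurons that a reporter assigns to the medial ganglionic eminence (MGE). They were Prox1, Nr2f2, Sp8, Id2, Adarb2, Calb2, Htr3a and Lamp5, chosen by name as markers of CGE-type interneurons, and they are 8 of the 35825 gene symbols in the deposited tables. A cell was counted as carrying a gene at 10 CPM or more, where CPM is the gene's count divided by the cell's total count and scaled to a common total of 1e6.

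The cells were single neurons drawn into a patch pipette and sequenced one by one (Patch-seq), from the CA1 pyramidal layer of the hippocampus of mice at postnatal day 4. All groups carried an Nkx2.1-driven Cre and the Ai14 reporter, so that tdTomato marks any cell that expressed Nkx2.1 or descends from one that did. WT mice had unaltered gephyrin (GPHN), the scaffold of inhibitory synapses; Mut mice carried gephyrin S268/270A, in which the serines 268 and 270 are alanine. Of 76 cells, 62 passed the authors' filter and bear no mark: 28 WT (9 from females, 19 from males) and 34 Mut (19 from females, 15 from males). Contamination is noted in the labels for another 5 WT cells, 1 female and 4 male. The filter had removed 9 cells, 1 WT and 8 Mut. Both of these sets are described apart. No animal, litter or batch is named for any cell, so cells are not replicates here, and no p-value was computed over cells.

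Cortical and hippocampal interneurons arise mainly from the MGE and the CGE, embryonic swellings that express different transcription factors. MGE cells use Nkx2-1 and then Lhx6 and Sox6, and become parvalbumin, somatostatin and many Npy or Nos1 interneurons. CGE cells use Prox1, Nr2f2 and Sp8, and become Vip, Cck, calretinin and Reln interneurons, most of which carry the serotonin receptor Htr3a. The split is not absolute in the hippocampus: neurogliaform and ivy cells, slow local inhibitory cells with Lamp5 or Id2, come in part from the MGE, and Nr2f2 is also made in part of the MGE.

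On the build of the files, GRCm38, and in the GENCODE M21 annotation, all 8 are protein-coding genes. Prox1 lies on chromosome 1 (190118035 to 190170714, minus strand), Nr2f2 on chromosome 7 (70351944 to 70366735, minus) and Adarb2 on chromosome 13 (8202866 to 8768747, plus). Sp8 lies on chromosome 12 (118846329 to 118852576, plus) and Id2 on the same chromosome (25093799 to 25097140, minus). Calb2 is on chromosome 8 (110137502 to 110168210, minus), Htr3a on chromosome 9 (48899213 to 48911099, minus) and Lamp5 on chromosome 2 (136052239 to 136069917, plus). Prox1, Nr2f2 and Htr3a overlap antisense or opposite-strand transcripts that are not rows of the tables, as does Gad1, used below for co-detection. Adarb2 overlaps the opposite-strand pseudogenes Gm10357 and Gm48260, which are rows. Gm48260 was at 10 CPM or more in 11 of the 62 cells (highest 56.6 CPM), 1 of them an Adarb2 cell. Adarb2 and Lhx6 also overlap same-strand transcripts that are not rows. The strand setting of the counting is not given in the sources used here, so reads of the pairs cannot be told apart.

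Among pairs of the 7 genes other than Id2, Prox1 and Lamp5 shared the most cells (4), so the 250 bases before the first listed start site of each are shown. They are RefSeq sequences on GRCm38.p6, at chr1:190170828-190171077 (minus strand) for Prox1 and chr2:136052089-136052338 (plus strand) for Lamp5, written 5′ to 3′ on the strand of the gene. Capitals mark E-boxes, the core CANNTG bound by basic helix-loop-helix factors, searched on both strands.
Prox1: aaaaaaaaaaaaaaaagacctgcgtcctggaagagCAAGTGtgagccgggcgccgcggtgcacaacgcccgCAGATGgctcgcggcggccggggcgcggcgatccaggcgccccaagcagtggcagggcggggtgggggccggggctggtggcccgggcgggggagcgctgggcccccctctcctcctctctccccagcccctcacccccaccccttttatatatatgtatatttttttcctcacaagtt
Lamp5: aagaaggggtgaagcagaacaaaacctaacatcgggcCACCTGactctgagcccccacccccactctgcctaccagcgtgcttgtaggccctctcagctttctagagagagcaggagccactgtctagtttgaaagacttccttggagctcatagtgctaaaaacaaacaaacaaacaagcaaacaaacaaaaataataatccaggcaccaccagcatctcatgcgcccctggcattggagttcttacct
The Prox1 window held 2 E-boxes and the Lamp5 window 1; of 32851 such windows of all genes, 66.2% held at least 1. The half-site AGGTCA of nuclear receptors such as the Nr2f2 protein, searched on both strands, was in neither window and in 14.02% of all windows. A match is a run of letters and not a shown binding site.

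Cells held 2946456 to 12070780 counts (median 6353179) among the 62. Of the 62 cells, 57 carried Lhx6, the MGE transcription factor, 58 carried Gad1, the GABA-synthesizing enzyme, and 55 carried both. Transcripts of other cells were present as well. Neurod6, a pyramidal neuron gene, was at 10 CPM or more in 31 of 62 cells, and 7 cells carried 3 or more of 11 microglial markers. The summed level of 10 pyramidal neuron markers had a median of 1831 CPM in WT and 759 CPM in Mut cells. Of these markers, Crym and Zbtb18 were carried by 53 and 46 of the 62 cells. Summed over the cells of each group, Crym was at 1888 and 1399 CPM in WT females and males and at 223 and 617 CPM in Mut. Neurod6 was carried by 16 WT and 15 Mut cells. How much of the marker sum is RNA of other cells was not tested.

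At least 1 of the 8 genes was carried by 50 of 62 cells, 80.6% (exact binomial 95% interval 68.6% to 89.6%). The WT share was 25 of 28 cells and the Mut share 25 of 34. Most of this came from Id2. Without Id2 the other 7 genes were carried by 26 of 62 cells, 41.9% (29.5% to 55.2%), by 15 of 28 WT and 11 of 34 Mut cells. Of these 26 cells, 16 carried 1 of the 7 genes, 7 carried 2, 2 carried 3 and 1 carried 4. The intervals cover counting error only, and reads copied by PCR and not tagged by molecule are not independent.

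**Figure D1:**
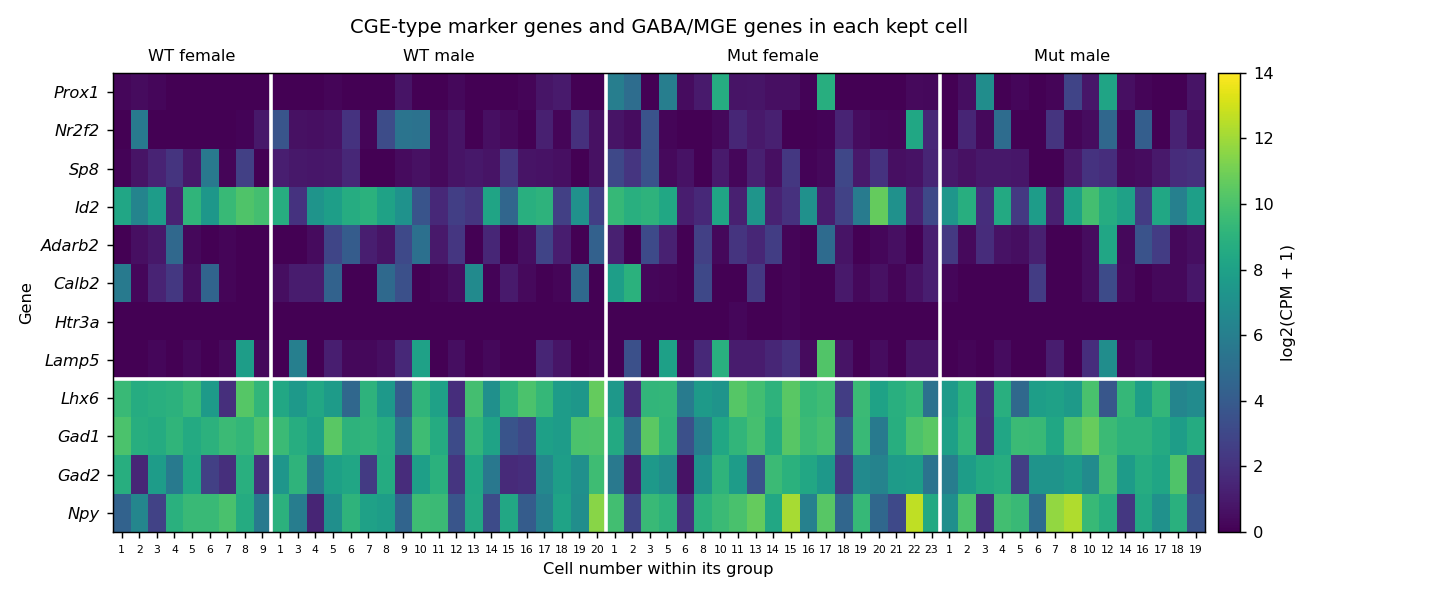
Level of the 8 CGE-type genes (rows above the white line) and of Lhx6, Gad1, Gad2 and Npy (below it) in each of the 62 cells (columns, in 4 groups), as log2(CPM + 1). The row of Id2 is bright in many cells and that of Htr3a dark in all, while the other 6 genes appear as isolated bright cells.

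Prox1, a homeodomain transcription factor, is needed for the maturation of CGE interneurons and also marks dentate granule cells. It was carried by 7 of 62 cells, all of them Mut. In Mut females its values were 61.5, 31.4, 62.2, 408 and 431 CPM in cells 1, 2, 5, 10 and 17. In Mut males they were 114 CPM in cell 3 and 290 CPM in cell 12. The other 14 Mut female and 13 Mut male cells lay below 10 CPM, and the highest of them was at 6.27 CPM. In WT cells the highest value was 0.997 CPM, in WT male cell 18, and a count of 0 in 28 cells leaves room for a share of 10.7% (3 cells of 28). Median values were 0 CPM in both WT groups, 0.471 CPM in Mut females and 0.206 CPM in Mut males, so most Mut cells overlapped the WT range. Of 452 genes that reached 10 CPM in exactly 7 of the 62 cells, Prox1 included, 1.55% had all 7 in Mut cells.

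The absence from WT held for unmarked cells. Of the 5 WT cells marked as contaminated, 3 carried Prox1, at 55.4, 28.3 and 31.6 CPM in marked WT male cells 1, 2 and 3. The first and the third lie within the range of the 7 Mut cells, and the second lies below the lowest of them (31.4 CPM). The 3 cells also carried 10 or 11 of the 11 microglial markers, with sums of 10829 to 11467 CPM, and 8 to 10 of 10 astrocyte and radial glia markers, with sums of 890 to 1491 CPM. None of the 3 carried Lamp5 (0, 6.10 and 0.411 CPM). Prox1 was below 10 CPM in all 9 cells removed by the filter (highest 1.83 CPM).

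The 7 Prox1 cells were not alike in what else they carried. Mut female cells 5, 10 and 17 and Mut male cell 12 carried Lamp5, Lhx6, Gad1, Gad2, Npy and Maf, and none of these 4 carried Neurod6. Of all 62 cells, 48 carried Gad2, 54 Npy and 48 Maf. Their Lhx6 values were 607, 149, 817 and 12.4 CPM and their Gad1 values 569, 327, 948 and 741 CPM. Cells 10 and 17 of the Mut females and cell 12 of the Mut males had low sums for astrocytes, granule cells and microglia. Their summed astrocyte and radial glia markers were 31.2, 4.54 and 14.98 CPM. The sums of 8 granule cell markers and of 11 microglial markers were at most 0.683 and 8.79 CPM. Pyramidal neuron and red blood cell sums were higher than these within the same 3 cells. The pyramidal neuron sums of these 3 cells were 149, 237 and 34.98 CPM (median 984 CPM in the 55 cells without Prox1), and the sums of 5 red blood cell markers were 276, 219.6 and 422 CPM (median 347 CPM in the 55 cells). These 3 cells also had the highest Prox1 values of the 76 cells. Over the 4 cells with Prox1 and Lamp5, vascular marker sums ran from 12.5 to 337 CPM. Their median was 83.5 CPM, against 40.7 CPM in the other 58 cells. Oligodendrocyte lineage sums ran from 0.341 to 239.9 CPM (median 8.52 against 7.32 CPM). Cajal-Retzius cell sums ran from 1.55 to 169 CPM (median 2.21 against 11.7 CPM).

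Mut female cell 5 carried 8 of 10 astrocyte and radial glia markers (2196 CPM in sum) besides its Lhx6 and Gad1. It also held Neurod1 at 62.1 CPM, Igfbpl1 at 27.3 CPM and the glutamate transporter gene Slc17a7 at 86.5 CPM, with granule cell markers summing to 90.04 CPM and pyramidal neuron markers to 921 CPM. The remaining 3 Prox1 cells lacked Lamp5 at 10 CPM. Mut female cells 1 and 2 held Neurod1 at 374 and 504 CPM and Igfbpl1 at 297 and 82.9 CPM, genes of immature granule neurons and other young neurons, together with Calb2 at 226 and 483 CPM. Their astrocyte and radial glia markers summed to 3049 and 6306 CPM. Cell 1 carried Lhx6 at 176 CPM and Gad1 at 361 CPM, whereas cell 2 had Lhx6 at 2.57 CPM and Gad1 at 27.7 CPM. Mut male cell 3 carried neither Lhx6 (3.08 CPM) nor Gad1 (2.78 CPM); it held Gad2 at 369 CPM, Neurod6 at 349 CPM and pyramidal neuron markers summing to 5708 CPM. Over all 7 Prox1 cells the granule cell sums ran from 0.478 to 676 CPM (median 7.49) against 0 to 613 CPM (median 2.64) in the other 55 cells. Median sums were also higher for red blood cell (1216 against 347 CPM), oligodendrocyte lineage (91.6 against 5.42 CPM) and vascular markers (97.2 against 39.9 CPM). They were lower for pyramidal neuron (806 against 984 CPM) and astrocyte and radial glia markers (42.9 against 249 CPM). Microglial (8.79 against 15.3 CPM) and Cajal-Retzius cell medians (2.79 against 10.5 CPM) were lower too. Of the 8 granule cell markers, Dsp, C1ql2 and Lct were below 10 CPM in all 62 cells. Trpc6 was carried by 14, Igfbpl1 by 9, Neurod1 by 8, C1ql3 by 2 and Tdo2 by 1 of them. In the 7 Prox1 cells only Neurod1 and Igfbpl1 of this list reached 10 CPM. The part of other cells' RNA in the Prox1 values was not tested.

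Lamp5, a membrane protein of neurogliaform-type interneurons, was carried by 7 cells of both genotypes. The values were 219 CPM in WT female cell 8, 63.8 and 261 CPM in WT male cells 3 and 10, 243, 449 and 1179 CPM in Mut female cells 5, 10 and 17, and 117 CPM in Mut male cell 12. All 7 carried Lhx6, Gad1, Gad2, Npy and Maf, where Npy is a neuropeptide of neurogliaform and ivy cells. These genes were broadly found: Npy was carried by 54, Gad2 by 48 and Maf by 48 of all 62 cells. The genotypes overlapped in Lamp5, with 3 of 28 WT and 4 of 34 Mut cells. Of these cells, all 4 Mut ones carried Prox1, at 62.2 to 431 CPM, and the 3 WT ones had 0 counts of it. That no WT cell here carried Prox1 follows from all 7 Prox1 cells being Mut. How many other genes split these cells by genotype in the same way was not counted. The 3 WT cells also held markers listed for other cell types. Astrocyte and radial glia markers summed to 1848 CPM in WT male cell 3 and microglial markers to 781 CPM in WT male cell 10. Pyramidal neuron markers summed to 8302 CPM in WT female cell 8. That list includes Crym, which 53 of all 62 cells carried, and how much of the sum is RNA of other cells was not tested.

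Prox1 and Lamp5 thus shared 4 cells, 57.1% of the cells of each gene. Across the 62 cells the Pearson correlation of log2(CPM + 1) was 0.616 and Spearman's rho 0.416, a description over cells that may share animals. Among the 451 genes other than Prox1 carried by exactly 7 cells, Lamp5 included, 2 (0.443%) shared 4 or more cells with Prox1. Lamp5 is itself among these 2. Of the 10217 genes carried by at least 5 cells, those most like Prox1 by Pearson correlation were Parm1 (0.644), Lamp5 (0.616) and Parva (0.609), which shared 4, 4 and 5 cells with it. Their Spearman's rho with Prox1 was 0.082, 0.416 and 0.377. The genes most like Lamp5 were Sall1 (0.654), Prox1 (0.616) and Haus1 (0.600), with 4, 4 and 5 cells shared and rho 0.351, 0.416 and 0.338.

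**Figure D2:**
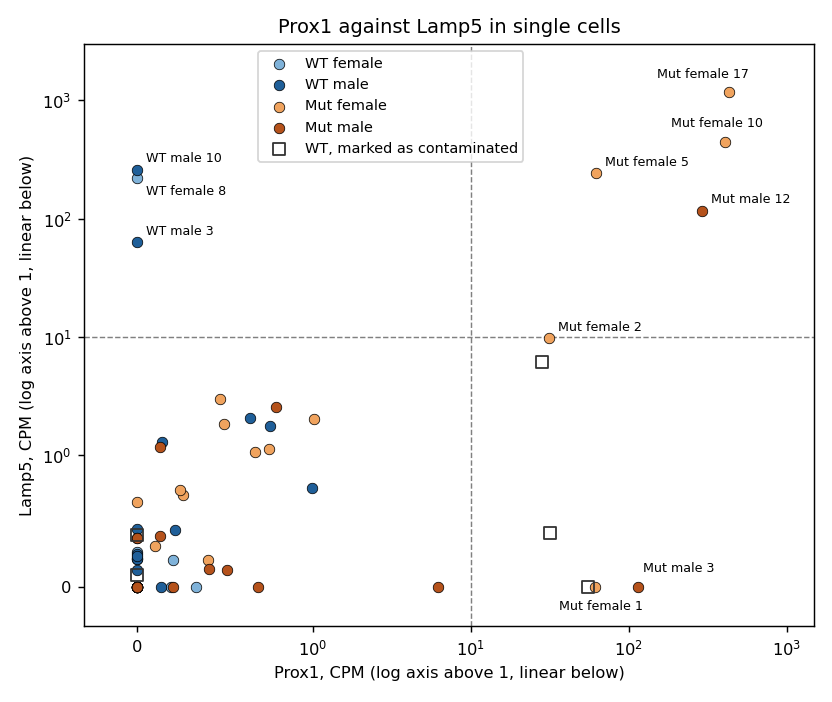
Prox1 (x axis) against Lamp5 (y axis) in CPM for the 62 cells (circles, coloured by group) and the 5 WT cells marked as contaminated (open squares); axes are logarithmic above 1 CPM, and dashed lines are at 10 CPM. The 4 cells at the upper right are Mut, and the 3 WT cells with Lamp5 stand at 0 Prox1 counts.

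Sox6, which acts after Lhx6 in the MGE lineage, was carried by 0 of the 7 Prox1 cells and by 0 of the 7 Lamp5 cells, where 0 of 7 cells leaves room for a share of 42.9%. Of the 62 cells, 25 carried Sox6. The 4 shared cells enter both counts.

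Nr2f2 (COUP-TFII), a nuclear receptor of the CGE and of part of the MGE, was carried by 4 of 28 WT and 5 of 34 Mut cells. In WT it stood at 52.4 CPM in female cell 2 and at 11.7, 41.1 and 37.7 CPM in male cells 1, 9 and 10. In Mut it stood at 11.02 and 329 CPM in female cells 3 and 22, and at 29.9, 24.99 and 17.2 CPM in male cells 4, 12 and 16. The genotypes overlapped except for Mut female cell 22, which held 97.1% of the Nr2f2 counts of its group. That cell was an Npy and Sst cell by its transcripts (6591 CPM of Npy and 2287 CPM of Sst), with Lhx6 at 624 CPM. All 9 Nr2f2 cells carried Lhx6, Gad1 and Npy, which 57, 58 and 54 of all 62 cells carried. The genes most like Nr2f2 were Pls3 (Pearson 0.495), Sv2c (0.492) and Riok2 (0.480), with 8, 4 and 3 of its 9 cells. Their Spearman's rho was 0.367, 0.123 and 0.156.

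Sp8, a zinc-finger factor of the dorsal lateral eminence and CGE, was carried by 2 of 62 cells, at 50.4 CPM in WT female cell 6 and 10.5 CPM in Mut female cell 3. Both carried Lhx6 and Gad1. Group medians were 0.650 to 0.977 CPM, and the highest male cells stood at 3.67 CPM in WT and 3.18 CPM in Mut.

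Id2, an inhibitor of basic helix-loop-helix factors, was the member found in most cells, 42 of 62. Among WT cells it was carried by 8 of 9 from females and 13 of 19 from males, and among Mut cells by 10 of 19 and 11 of 15. The lowest, median and highest cells were at 1.56, 310 and 1112 CPM in WT females, 2.08, 137 and 528 CPM in WT males, 1.08, 55.4 and 1629 CPM in Mut females and 1.31, 237 and 885 CPM in Mut males. No cell lay between 7.33 and 11.6 CPM, and the 4 groups overlapped over most of their range. Of the 42 cells, 39 carried both Lhx6 and Gad1, against 16 of the 20 cells without Id2. The genes most like Id2 were Ctnnb1 (Pearson 0.612), Ik (0.565) and Ubb (0.541), with 37, 29 and 42 of its 42 cells. Their Spearman's rho was 0.602, 0.570 and 0.497. Id2 is also made by glia, and all 5 marked cells carried it, at 572 to 1493 CPM.

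Adarb2, a relative of the RNA-editing enzymes without known editing activity, is a broad marker of CGE interneurons. It was carried by 7 cells: WT female cell 4 at 26.0 CPM, WT male cells 6, 10 and 20 at 16.01, 35.4 and 19.1 CPM, Mut female cell 17 at 29.0 CPM, and Mut male cells 12 and 16 at 316 and 10.98 CPM. A single cell, Mut male cell 12, stood above the common range and held 94.9% of the Adarb2 counts of its group. All 7 carried Lhx6, Gad1, Gad2 and Npy. None carried Nkx2-1, which 11 of all 62 cells carried, and none in 7 cells leaves the same room as for Sox6 above. Among the genes most like Adarb2 were Sag (Pearson 0.516) and Vegfa (0.479), with 2 and 5 of its 7 cells. Their Spearman's rho was 0.393 and 0.343.

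Calb2 encodes calretinin, a calcium-binding protein of interneuron-selective cells and of immature granule neurons. It was carried by 6 of 28 WT and 2 of 34 Mut cells. In WT the values were 53.8 and 22.1 CPM in female cells 1 and 6 and 19.8, 26.3, 102 and 26.6 CPM in male cells 5, 8, 13 and 19. In Mut they were 226 and 483 CPM in female cells 1 and 2, above every WT value, and no Mut male cell exceeded 8.02 CPM. Both Mut cells also carried Prox1, Neurod1, Igfbpl1 and glial markers, as described above. All 8 Calb2 cells carried Gad1 and 7 carried Lhx6. Tac1, the substance P precursor, was carried by 7 of 8 Calb2 cells against 23 of the other 54 cells. The genes most like Calb2 were Natd1 (Pearson 0.534), Acvr2b (0.520) and Neurod1 (0.515), with 5, 5 and 4 of its 8 cells. Their Spearman's rho was 0.293, 0.283 and 0.156.

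Htr3a, the ionotropic serotonin receptor of CGE interneurons, was not found at 10 CPM in any of the 62 cells, a count of 0 that leaves room for a share of 4.84%. It had 0 counts in 60 cells, and the highest value was 0.169 CPM, in Mut female cell 11. A single removed cell, Mut female cell 9, held 171 CPM of Htr3a together with 2340 CPM of Npy and 4822 CPM of Tac1, at Lhx6 6.53 CPM and Gad1 18.6 CPM.

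Levels were compared between genes per transcript length, as TPM (a length-scaled share of the cell's transcripts, deposited by the authors), in the cells carrying each gene. The median was 361 TPM for Id2 (42 cells), 235 TPM for Lamp5 (7 cells) and 46.2 TPM for Calb2 (8 cells). It was 21.1 TPM for Prox1 (7 cells), 13.2 TPM for Sp8 (2 cells), 12.02 TPM for Nr2f2 (9 cells) and 6.23 TPM for Adarb2 (7 cells). Neighbours in this order overlapped in range: Lamp5 ran from 81.7 to 1056 TPM and Calb2 from 21.7 to 436 TPM, and the 4 genes below them all spanned 9.69 to 23.6 TPM.

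Most cells with a CGE-type gene also carried the MGE and GABA genes. Of the 50 cells with at least 1 of the 8 genes, 46 carried both Lhx6 and Gad1 (92.0%), against 9 of the 12 cells with none. For the 7 genes without Id2 it was 24 of 26 cells (92.3%) against 31 of 36. By gene, both were present in 7 of 7 Lamp5, 7 of 7 Adarb2, 9 of 9 Nr2f2, 2 of 2 Sp8, 7 of 8 Calb2 and 39 of 42 Id2 cells. Prox1 had the lowest share of the 7 genes found, 5 of 7 cells (71.4%, exact binomial interval 29.0% to 96.3%) against 50 of 55 cells without it. The 2 Prox1 cells without both were Mut female cell 2 and Mut male cell 3.

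**Figure D3:**
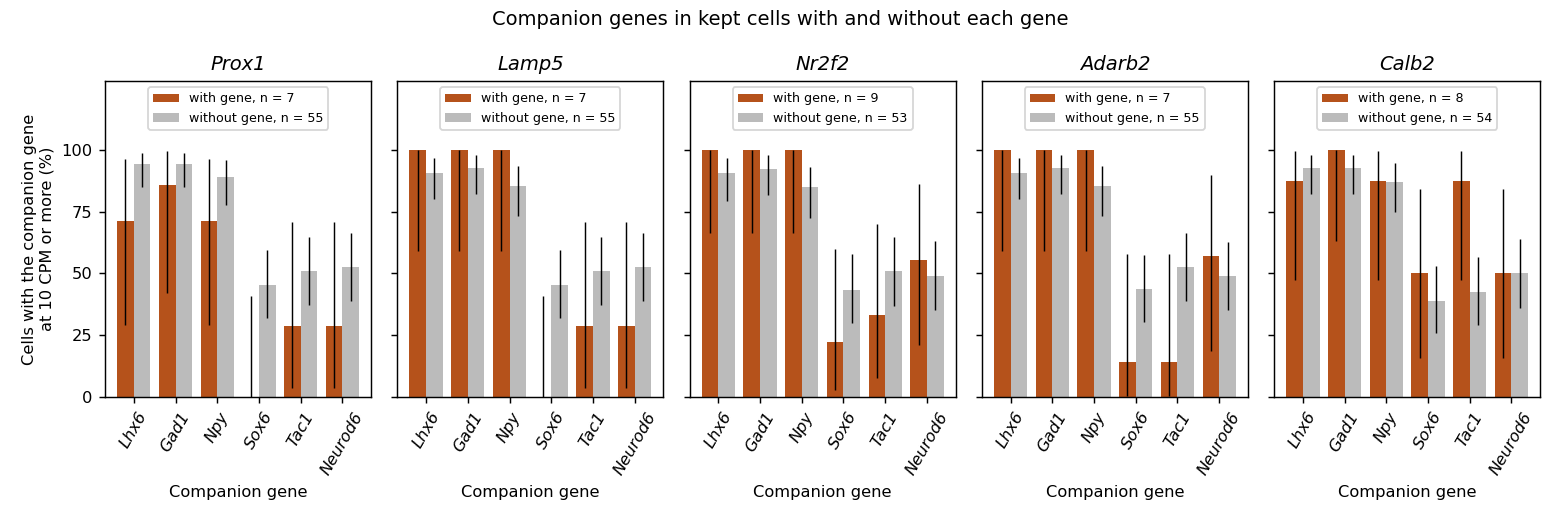
Share of cells (percent) carrying Lhx6, Gad1, Npy, Sox6, Tac1 or Neurod6 among cells with (orange) and without (grey) each of 5 genes; error bars are exact binomial 95% intervals and cover counting error only. Lhx6 and Gad1 are at 100% in Lamp5, Nr2f2 and Adarb2 cells, and Sox6 is at 0 in Prox1 and Lamp5 cells.

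A few cells carried several of the genes. Mut male cell 12 carried 5 of 8, with Prox1 at 290 CPM, Nr2f2 at 24.99 CPM, Adarb2 at 316 CPM, Lamp5 at 117 CPM and Id2 at 409 CPM; its Lhx6 was 12.4 CPM, just above the limit, and its Gad1 and Gad2 were 741 and 913 CPM. WT male cell 10 carried 4 of 8, with Nr2f2 at 37.7 CPM, Adarb2 at 35.4 CPM, Lamp5 at 261 CPM and Id2 at 11.6 CPM. This WT cell held 626 CPM of Nos1, the nitric oxide synthase of ivy and neurogliaform cells, and 571 CPM of Lhx6. It also carried 7 of 11 microglial markers, with C1qa at 174 CPM, whereas Mut male cell 12 carried 0 of 11. Among the pairs of genes, Adarb2 shared 3 cells with Lamp5 and 3 with Nr2f2.

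Other genes of CGE-type interneurons were taken as a list of 17. Cck, the cholecystokinin precursor, was in 46 of 62 cells. The receptor gene Nr2f1 was in 34, the cannabinoid receptor Cnr1 in 25, the transcription factor Npas3 in 22, Rgs12 in 16 and Ndnf, a neurogliaform marker, in 13 cells. Vip, which defines a main CGE class, was in 1 cell (WT female cell 9, 288 CPM, with Lhx6 at 597 CPM), and Sncg in 1 cell. Thus genes of the list ranged from 1 to 46 cells, and the broadly found ones are also made by other hippocampal neurons.

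To compare the genotypes, counts of the cells of each group were summed, and the 4 sums were tested with edgeR's quasi-likelihood test with sex as a term. With 1 sum per group and 1 residual degree of freedom, 0 of 16435 genes had a Benjamini-Hochberg adjusted p under 0.05 (0% of those tested). At an unadjusted p under 0.05, 273 were higher and 302 lower in Mut. Together these made up a share below 0.05 of the genes tested, so the counts show no excess over that threshold. DESeq2 on the same sums passed 367 higher and 299 lower, 4.49% of the 14841 genes to which it gave an adjusted p. None of the 7 members tested passed with edgeR and 1, Prox1, with DESeq2; Htr3a was too low to test. Of those 7, 3 (Prox1, Nr2f2, Adarb2) had the higher sum in Mut in females and in males, 0 the lower sum in both, and 4 differed in direction between the sexes. Of the 3, only Prox1 kept both signs whichever cell was left out. Of all genes tested 25.1% were higher in both sexes, 25.1% lower in both and 49.2% opposite. The filter keeps a gene that is high in 1 genotype only, so counts over the tested members describe them and no more.

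Summed Prox1 was 0.0939 CPM (5 counts) in WT females and 0.160 CPM (21 counts) in WT males, against 50.9 and 34.96 CPM in Mut females and males. With a pseudocount of 1 CPM the log2 ratio was 5.57 in females and 4.95 in males, and the fitted log2 fold change over both sexes 8.39 (SE 1.49, edgeR p = 0.00316, adjusted p = 1). DESeq2 gave 8.38 with an adjusted p of 9.79e-13. The p-values of both tools come from the 4 sums, and Prox1 passed the filter through its Mut sums. They measure no spread between animals or between cells, so no conclusion is drawn from them. A log2 ratio of at least 1 in both sexes was reached by 1 of the 7 members, Prox1, and by 5.1% of all genes tested; 0 members and 3.77% of genes had one of at most -1 in both. The sums rest on few cells. Mut male cell 12 held 85.1% of the Mut male counts, and without it the male log2 ratio was 2.56 and the fitted value 7.06. With the marked WT cells added to their groups the male log2 ratio was 2.60 and the fitted value 5.93. Only cells with Lhx6 and Gad1 gave 5.69 in females and 4.84 in males.

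Nr2f2 had a fitted log2 fold change of 1.35 (SE 1.48, adjusted p = 1), with 6.05 and 5.02 CPM in WT females and males and 31.6 and 6.29 CPM in Mut. Without Mut female cell 22 it was -1.14 and without WT female cell 2 it was 3.75. Adarb2 was at 2.05 and 4.78 CPM in WT and 3.19 and 34.1 CPM in Mut, with a fitted value of 1.74 (SE 1.56, adjusted p = 1) that was -0.33 without Mut male cell 12. Lamp5 was at 35.5 and 13.2 CPM in WT and 110 and 12.3 CPM in Mut, with a fitted value of 0.77 (SE 0.89, adjusted p = 1); it was 4.65 without WT female cell 8, -1.88 without Mut male cell 12 and -0.13 without Mut female cell 17.

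For Calb2 the sums were 13.6 and 7.998 CPM in WT females and males and 33.3 and 1.43 CPM in Mut, a log2 ratio of 1.23 in females and -1.89 in males. The female ratio was -0.13 without Mut female cell 2 and -0.16 over cells with Lhx6 and Gad1. The Sp8 sums were 7.42 and 0.631 CPM in WT and 1.87 and 1.10 CPM in Mut, and without WT female cell 6 the female ratio moved from -1.55 to 0.10. Id2 was at 597 and 188 CPM in WT and 207 and 246 CPM in Mut, with log2 ratios of -1.52 in females and 0.38 in males and a fitted value of -0.57 (SE 0.59, adjusted p = 1).

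**Figure D4:**
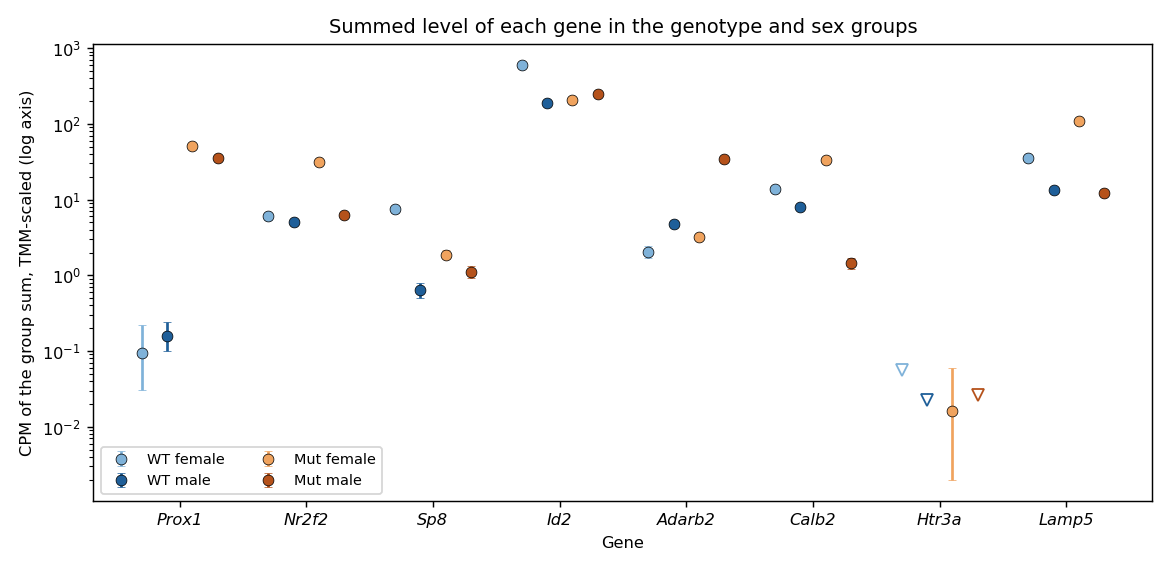
TMM-scaled CPM of each gene in the sum of each group (log axis; bars are exact Poisson 95% intervals and cover counting error only, often smaller than the points; open triangles are the floor of 3 counts where no read was found). Prox1 is at 0.0939 and 0.160 CPM in the WT sums and at 50.9 and 34.96 CPM in the Mut sums, and none of the other 6 genes tested reaches a log2 ratio of 1 or more, or -1 or less, in both sexes.

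In the list of 17 further CGE-type genes, 14 could be tested and 0 passed with edgeR (adjusted p = 1 for each). By value 6 had the higher sum in Mut in each sex, 3 the lower sum in each sex and 5 a different direction in females and males. Over all tested genes these shares were 25.1%, 25.1% and 49.2%. A log2 ratio of 1 in both sexes was reached by 3 (Ndnf, Penk and Synpr), and by 5.1% of all tested genes. In the MGE interneuron list 3 of 10 tested genes reached it, and in the GABA neuron list 0 of 8. The median fitted log2 fold change was 0.40 over the 14 CGE-type genes and -0.00042 over all tested genes. It was 0.30 over the MGE list and 0.22 over the GABA list. Ndnf was at 0.770 and 2.39 CPM in WT females and males and at 3.42 and 13.8 CPM in Mut. Synpr, a synaptic vesicle protein, was at 0.958 and 13.1 CPM in WT and 68.1 and 38.9 CPM in Mut. Cck was at 633 and 499 CPM in WT and 121 and 349 CPM in Mut, with a fitted value of -1.45 (SE 0.58).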

How the data were processed

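Single cells were sequenced by Patch-seq, and each sample is 1 cell. Per the submitters' processing notes the authors used kallisto and GRCm38; their versions, how cells were filtered and why some bear a contamination mark are not given in the sources used here. Expected counts per gene symbol were deposited by the authors in 1 table before and 1 after their filter. The deposited normalized table holds TPM, which the authors scaled by length and depth. The tables also have columns of other samples (52 in the first, 44 in the second), left out here.

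CPM was computed per cell from the expected counts. Groups come from the labels; cell numbers are numbers in accession order. Shares have exact (Clopper-Pearson) 95% intervals, and a count of 0 has a floor of 3 cells or counts. Intervals and floors cover counting error only. The most alike pair of cells had a Pearson correlation of 0.841 over all genes (median 0.604), so no cell was counted as a copy of another. The cells of each group were summed and rounded, giving 61543135 counts for WT females, 120682125 for WT males, 117701842 for Mut females and 112199121 for Mut males. Genotype was tested with edgeR 4.0.16 (filterByExpr, minimum count 10, TMM, terms for sex and genotype, Benjamini-Hochberg) on R 4.3.3; within-sex log2 ratios use TMM-scaled CPM with a pseudocount of 1 CPM. DESeq2 1.42.0, other scalings, limits, cell sets and leaving out each cell were alternatives.

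The 8 genes, the gene lists and the limit of 10 CPM were chosen with earlier results of these data known. The rule for other named genes takes the genes of the MGE, GABA and other-cell lists where they bear on a result, the 6 genes of the CGE-type list carried by most cells, and the 3 genes of highest Pearson correlation with each member carried by at least 5 cells (Gm and Rik names passed over). A gene this rule names for Adarb2 is not reported here. Vip, Sncg, Penk and Synpr lie outside it and were named after their values were seen. Of the 8 genes, 6 matched a RefSeq promoter window by symbol.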

Additional observations from a re-analysis of the deposited data

Results flagged for a closer look

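Dixon's test at the 95% level was used only as a rule to pick single cells for a closer look. Among the 9 WT female cells, it picked a cell far above the next for 5 genes. Nr2f2 stood at 52.4 CPM in cell 2 (next 0.843 CPM), Adarb2 at 26.0 CPM in cell 4 (next 0.838 CPM) and Sp8 at 50.4 CPM in cell 6 (next 5.23 CPM). Calb2 stood at 53.8 CPM in cell 1 (next 22.1 CPM) and Lamp5 at 219 CPM in cell 8 (next 0.267 CPM). Among the 4 WT male cells marked as contaminated, Sp8 stood at 175 CPM in cell 1 (next 2.46 CPM). The other 3 groups of unmarked cells have too many cells for this test. Chance alone marks about 5% of groups of independent values, and more where most values are near 0, as for these genes. Cells are not replicates here, so the level of the test decides nothing and no conclusion is drawn from it.

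The log2 ratio of Mut over WT had opposite signs in the sexes for 4 genes. It was -1.55 in females and 0.37 in males for Sp8, 1.23 and -1.89 for Calb2, 1.61 and -0.10 for Lamp5, and -1.52 and 0.38 for Id2. The male sign of Lamp5 rests on single cells: its ratio was -3.46 without Mut male cell 12 and 2.05 without WT male cell 10. The female signs of Sp8 and Calb2 turned without WT female cell 6 (0.10) and without Mut female cell 2 (-0.13). Each is a ratio of 2 sums, so whether females and males differ was not tested.

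Cells outside the comparison held some of the genes above the highest unmarked WT cell. Cells marked as contaminated held Prox1 at up to 55.4 CPM (3 of 5 cells at 10 CPM or more), Nr2f2 at 59.3 CPM (WT female cell 1), Sp8 at 175 CPM (WT male cell 1) and Id2 at up to 1493 CPM (WT male cell 3). Cells removed by the filter held Adarb2 at 154 CPM (Mut male cell 15, with Lhx6 at 932 CPM and Sp8 at 26.1 CPM) and Htr3a at 171 CPM (Mut female cell 9), a gene with at most 0.169 CPM in the 62 cells.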

How the results depend on the processing

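Leaving out 1 cell at a time, the fitted log2 fold change ranged from 7.06 to 8.69 for Prox1, -1.14 to 3.75 for Nr2f2, -0.33 to 3.44 for Adarb2, -0.77 to 0.48 for Sp8, -1.31 to 0.29 for Calb2, -1.88 to 4.65 for Lamp5 and -0.84 to -0.40 for Id2. Only Prox1 and Id2 kept their sign throughout. The female log2 ratio ranged from -1.83 to 4.74 for Nr2f2, -1.86 to 0.10 for Sp8, -0.13 to 2.77 for Calb2 and -0.15 to 6.64 for Lamp5, and the male ratio of Adarb2 from -0.97 to 2.99. The female ratio of Adarb2 ranged from -0.41 to 1.81, the male ratio of Nr2f2 from -0.21 to 0.76 and that of Lamp5 from -3.46 to 2.05. No paired analysis was possible because the cell numbers of the groups were given in accession order and tie no cells together.

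DESeq2 passed 666 genes instead of 0, Prox1 among them, and the cause of this difference between the tools was not tested. Without the sex term Calb2 was at 0.69. Leaving out 1 sum, without the sex term, gave Sp8 1.24, Calb2 1.12 and Id2 0.27 without WT females, Calb2 0.39 without WT males, Lamp5 -0.96 without Mut females, and Adarb2 -0.090 and Calb2 1.63 without Mut males. Over cells with Lhx6 and Gad1 the female Calb2 ratio was -0.16. With marked cells added, the male ratios of Sp8, Lamp5 and Id2 were -2.15, 0.19 and -0.33. Library totals in place of TMM shifted the median log2 ratio of all genes by 0.14 in females and -0.06 in males and changed no member's sign.

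At a limit of 1 CPM for all genes, 100% of cells carried at least 1 of the 8 genes and 100% of those carried Lhx6 and Gad1; at 100 CPM the first share was 67.7%. At 10 TPM, 6 Mut and 0 WT cells carried Prox1. The sets without Neurod6 cells and without cells of 3 or more microglial markers, chosen after seeing the data, kept the share of carrying cells at 80.6% and 78.2%.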
